A study of Homo sapiens with 12 samples.

Results

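The 140 genes described here stood higher after 6 h of 100 nM THZ531 than after DMSO, and lower again at 500 nM, in both of 2 Ewing sarcoma cell lines. They were chosen from 16944 genes by 4 differences between group means of log2 array signal, each array being centred on its median. A gene was taken when 100 nM minus DMSO was at least 0.7 and 500 nM minus 100 nM was at most -0.5 in A673 and in TC32, and when its deposited 100 nM mean was at least 6.5 in both lines. Symbols starting with ZNF, RNF, TRIM, HERC or FBXO and the genes SEC24A, CHD2, CPEB2 and OSMR were left aside, and 11 of those met the same thresholds. These 4 differences, and with them the 500 nM minus DMSO difference of each line, which is the sum of that line's pair, rest on the arrays that chose the genes and are given below as a description with no test. A further 2 symbols, RBM14 and RBM14-RBM4, met the thresholds but share identical values and were left out.

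The groups were A673 cells with DMSO, 100 nM or 500 nM THZ531 and TC32 cells with DMSO, 100 nM or 500 nM THZ531, each for 6 h and each with 2 arrays labelled as biological replicates, 12 arrays in 6 groups. A673 and TC32 are established lines of Ewing sarcoma, a tumour of bone and soft tissue in which EWSR1 is fused to a gene of the ETS family, and each is a single line standing for the disease. All cells grew in DMEM with fetal bovine serum, and ERCC spike-in RNA was added to total RNA that was then biotin-labelled. A dose of 100 nM stands in the labels of the DMSO samples as well and was taken not to concern them. The labels call the 2 replicates of a group biological but do not say that they were separate cultures, so what the spread between them covers is not known.

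THZ531 binds covalently to CDK12 and CDK13 and inhibits them, kinases that pair with cyclin K and phosphorylate the tail of RNA polymerase II while it elongates. Loss of CDK12 activity is known to lower many long genes, among them genes of homologous recombination, by shortening their transcripts at early polyadenylation sites. Kinase inhibitors of transcription are also known to raise a set of short-lived transcripts, for instance through release of P-TEFb from its 7SK complex.

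The Ewing sarcoma markers gave signal in both lines, but not all markers of other tissues were lower. All 8 Ewing sarcoma markers in the table stood at or above 5.94, the 40th percentile of the genes' mean log2 signal, with CD99 at 13.82 in A673 and 13.24 in TC32 under DMSO. The blood marker PTPRC (3.72 and 3.63), the epithelial marker EPCAM (4.32 and 4.09) and ALB (4.98 and 4.50) were below that level in A673 and TC32. Over all 16 markers of other tissues, 13 in A673 and 8 in TC32 stood at or above it, so the level marks dim genes and not absence. In A673 the neural marker SYP (8.22) and PDGFRB of endothelium and fibroblast (8.09) were highest, above the Ewing sarcoma marker PAX7 (8.08). MUC1 was highest at 7.76 among the epithelial and CD79A at 7.40 among the blood markers there. In TC32 SYP (7.15) was highest, above the Ewing sarcoma marker SOX2 (6.72). The deposited array medians moved with dose: A673 averaged 7.20 with DMSO, 6.58 at 100 nM and 6.36 at 500 nM, and TC32 averaged 6.51, 6.30 and 5.71. In A673 replicates 1 and 2 had medians of 6.60 and 6.13 at 500 nM, beside 6.61 and 6.54 at 100 nM. Most of the step between the doses in A673 therefore came from replicate 2 at 500 nM. Centring removes a shift of -0.62 at 100 nM in A673 and -0.21 in TC32, and of -0.83 and -0.79 at 500 nM, all against DMSO. Every value called relative below is log2 signal minus its array's median, so that a relative difference says how a gene moved against the typical gene and not whether its RNA per cell rose or fell. The 2 arrays of a group correlated at 0.991 to 0.997 across genes.

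Because the members were chosen to move together, the 250 bases before the start of 4 of those with the largest differences at 100 nM are shown, from RefSeq on GRCh38.p14, 5′ to 3′ along the gene's strand. They belong to MVB12B (chr9:126326579-126326828, plus strand), PHF12 (chr17:28951519-28951768, minus strand), TAF5L (chr1:229626123-229626372, minus strand) and COG3 (chr13:45464689-45464938, plus strand). Capitals mark a CCAAT box (CCAAT), a GC box (GGGCGG) and an ETS core (CCGGAA), on either strand.
MVB12B: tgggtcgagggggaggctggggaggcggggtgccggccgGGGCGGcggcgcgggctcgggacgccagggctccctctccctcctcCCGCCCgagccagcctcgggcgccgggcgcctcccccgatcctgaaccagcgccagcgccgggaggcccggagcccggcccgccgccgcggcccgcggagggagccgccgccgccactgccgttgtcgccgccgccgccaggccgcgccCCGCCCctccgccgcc
PHF12: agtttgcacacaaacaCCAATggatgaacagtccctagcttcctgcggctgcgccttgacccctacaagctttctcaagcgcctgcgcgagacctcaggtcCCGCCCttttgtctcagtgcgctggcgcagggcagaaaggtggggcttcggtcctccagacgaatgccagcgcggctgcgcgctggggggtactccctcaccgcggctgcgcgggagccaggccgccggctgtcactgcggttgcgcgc
TAF5L: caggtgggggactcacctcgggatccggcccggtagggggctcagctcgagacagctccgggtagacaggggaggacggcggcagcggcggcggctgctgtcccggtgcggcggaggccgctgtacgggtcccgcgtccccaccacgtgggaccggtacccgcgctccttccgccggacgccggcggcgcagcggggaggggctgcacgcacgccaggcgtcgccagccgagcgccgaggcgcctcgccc
COG3: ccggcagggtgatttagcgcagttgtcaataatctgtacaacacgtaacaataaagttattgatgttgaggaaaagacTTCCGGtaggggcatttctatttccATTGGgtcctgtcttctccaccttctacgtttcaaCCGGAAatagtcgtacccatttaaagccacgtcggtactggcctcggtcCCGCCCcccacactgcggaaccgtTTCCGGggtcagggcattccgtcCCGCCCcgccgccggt
The COG3 window holds 3 ETS cores, 1 CCAAT box and 2 GC boxes. The MVB12B window holds 3 GC boxes and the PHF12 window 1 CCAAT box and 1 GC box, while TAF5L's holds none of these letters. The matches are a description of these letters and not binding sites.

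Across the 140 genes the median relative level in A673 was 1.06 with DMSO, 2.14 at 100 nM and 1.17 at 500 nM, and in TC32 it was 0.78, 2.07 and 0.87. The 100 nM minus DMSO difference had a median of 0.96 in A673 (range 0.71 to 2.80), against 0.10 over all 10166 tested genes, and of 1.14 in TC32 (0.70 to 3.19), against 0.14. The 500 nM minus 100 nM difference had a median of -0.94 in A673 (-2.52 to -0.51), against 0.02, and of -1.10 in TC32 (-2.83 to -0.51), against 0.07. The difference at 100 nM was larger in TC32 for 108 of the 140 genes, and the return at 500 nM was larger there for 101. These counts were not set beside all tested genes and are not read as a trait of the 140. Over the 140 genes, which share arrays and control groups, the 100 nM differences of the 2 lines correlated at 0.80. On the relative scale 281 genes were at least 0.7 higher at 100 nM in both lines with the same floor. Of these, 151 (53.7%, the 11 set aside included) were at least 0.5 lower again at 500 nM in both, 18 were at least 0.5 higher still and 112 did neither. Both differences share the 100 nM arrays, so the counts are a description only.

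**Figure D1:**
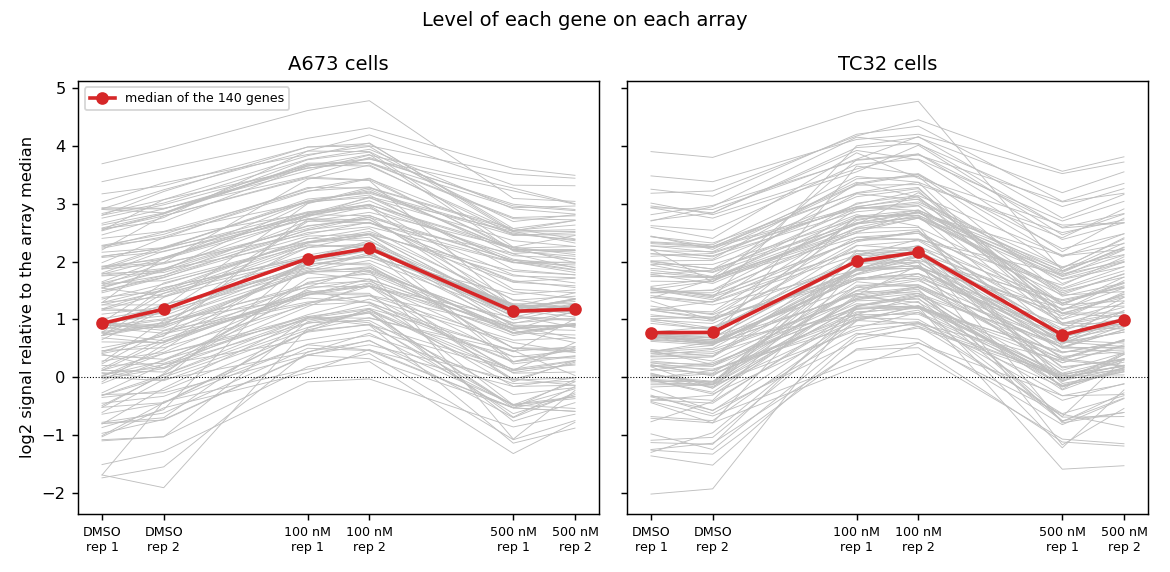
Relative log2 signal (log2 signal minus the array median, vertical axis) of the 140 genes on each of the 6 arrays of A673 (left) and TC32 (right), ordered by dose; grey lines are genes and the red line their median. The median stands at 2.14 at 100 nM in A673 and 2.07 in TC32, above the values with DMSO and at 500 nM.

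**Figure D2:**
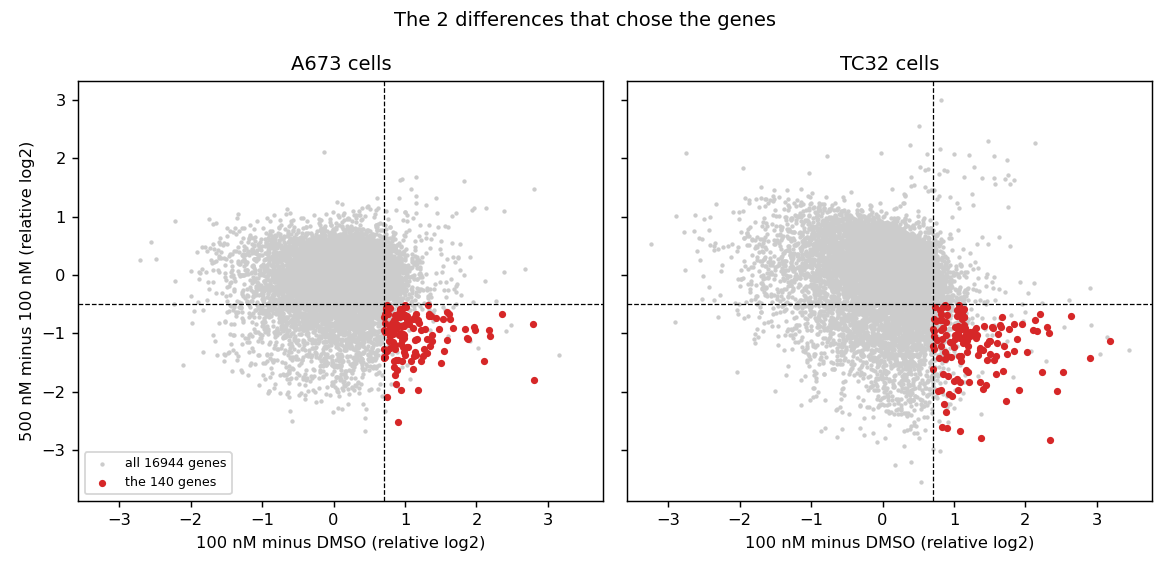
The 100 nM minus DMSO difference (horizontal axis, relative log2) against the 500 nM minus 100 nM difference (vertical axis, relative log2) for all 16944 genes (grey) and the 140 genes (red) in A673 (left) and TC32 (right). Dashed lines mark 0.7 and -0.5, so that the red points lie in the lower right corner by construction.

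The edges of the set are narrow. DEDD2 (0.7), SRFBP1 (0.703) and LUZP1 (0.7035) lay just inside through their 100 nM minus DMSO difference in TC32. PPP2R5A at 0.6875 in TC32, UBP1 at 0.687 in A673 and RND3 at 0.686 in A673 lay just outside.

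The scale matters for what "raised" means. In the deposited, uncentred values the 100 nM minus DMSO difference of the 140 genes had a median of 0.34 in A673 (0.09 to 2.18), against -0.52 over all tested genes, and of 0.93 in TC32 (0.49 to 2.98), against -0.07. All 140 differences were above 0 on that scale too, but 28 reached 0.7 in A673 and 104 in TC32. Both 100 nM arrays stood above both DMSO arrays in the deposited values for 124 of the 140 in A673, where 3.44% of all tested genes did so, and for all 140 in TC32, where 26.1% did; on the relative scale all 140 did in both lines, against 42.8% and 49.3% of tested genes. The choice of the genes fixed these counts, and nothing is read from them. In arrays of bulk RNA, fewer cells and less RNA per cell cannot be told apart.

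The largest difference at 100 nM belonged to MVB12B, a subunit of the ESCRT-I complex that sorts ubiquitinated membrane proteins. Its relative level stood in A673 at -1.69 and -1.91 (DMSO), 0.85 and 1.14 (100 nM) and 0.08 and 0.23 (500 nM), and in TC32 at -2.02 and -1.93 (DMSO), 1.21 and 1.23 (100 nM) and -0.01 and 0.20 (500 nM). No 2 dose groups overlapped, and the 500 nM arrays lay between the 100 nM and the DMSO arrays in both lines. The 100 nM minus DMSO difference was 2.79 in A673 and 3.19 in TC32. Its deposited means with DMSO, 5.40 in A673 and 4.53 in TC32, were under 5.94, where array signal is dim.

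TAF5L, a subunit of the SAGA coactivator complex, had a like course. It stood in A673 at 0.51 and 0.71 (DMSO), 2.83 and 3.10 (100 nM) and 2.36 and 2.26 (500 nM), and in TC32 at 1.51 and 1.37 (DMSO), 4.0 and 4.15 (100 nM) and 3.19 and 3.55 (500 nM). Most of the 100 nM difference was still there at 500 nM, where TAF5L was 1.69 above DMSO in A673 and 1.93 in TC32. KMT5B, which methylates lysine of histone H4, stood in A673 at 1.09 and 1.21 (DMSO), 3.0 and 3.25 (100 nM) and 2.20 and 2.19 (500 nM), and in TC32 at 0.70 and 0.65 (DMSO), 3.65 and 3.50 (100 nM) and 1.88 and 2.41 (500 nM). Its 3 dose groups did not overlap in either line, and 500 nM lay in between.

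PHF12, a PHD-finger protein of a Sin3 corepressor complex, had the second largest difference at 100 nM and parted at 500 nM. It stood in A673 at -0.87 and -0.56 (DMSO), 1.98 and 2.19 (100 nM) and 0.23 and 0.36 (500 nM), and in TC32 at -0.33 and -0.40 (DMSO), 1.97 and 1.98 (100 nM) and -1.17 and -0.54 (500 nM). The 2 lines overlapped at 100 nM, but at 500 nM the A673 arrays stayed above their DMSO arrays and the TC32 arrays lay below theirs.

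LATS1, a kinase of the Hippo pathway, stood in A673 at -1.10 and -1.03 (DMSO), 0.96 and 1.13 (100 nM) and -0.53 and -0.33 (500 nM), and in TC32 at -1.13 and -1.16 (DMSO), 1.23 and 1.37 (100 nM) and -0.75 and -0.61 (500 nM). It returned most of the way, with 500 nM still above DMSO on the relative scale. In the deposited values its 500 nM mean lay below its DMSO mean in A673 (5.93 and 6.13) and in TC32 (5.03 and 5.36). All of these but 6.13 were under 5.94. DMXL1, a protein linked to assembly of the vacuolar proton pump, stood in A673 at 0.08 and -0.04 (DMSO), 2.05 and 2.36 (100 nM) and 1.22 and 1.09 (500 nM), and in TC32 at 0.07 and -0.19 (DMSO), 2.10 and 2.38 (100 nM) and 1.17 and 1.54 (500 nM). COG3, of the complex that tethers vesicles at the Golgi, stood in A673 at -1.74 and -1.55 (DMSO), 0.44 and 0.63 (100 nM) and -0.47 and -0.34 (500 nM), and in TC32 at -1.36 and -1.52 (DMSO), 0.68 and 0.85 (100 nM) and -0.01 and 0.21 (500 nM). For both, every 500 nM array lay below every 100 nM array and above every DMSO array of its line.

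**Figure D3:**
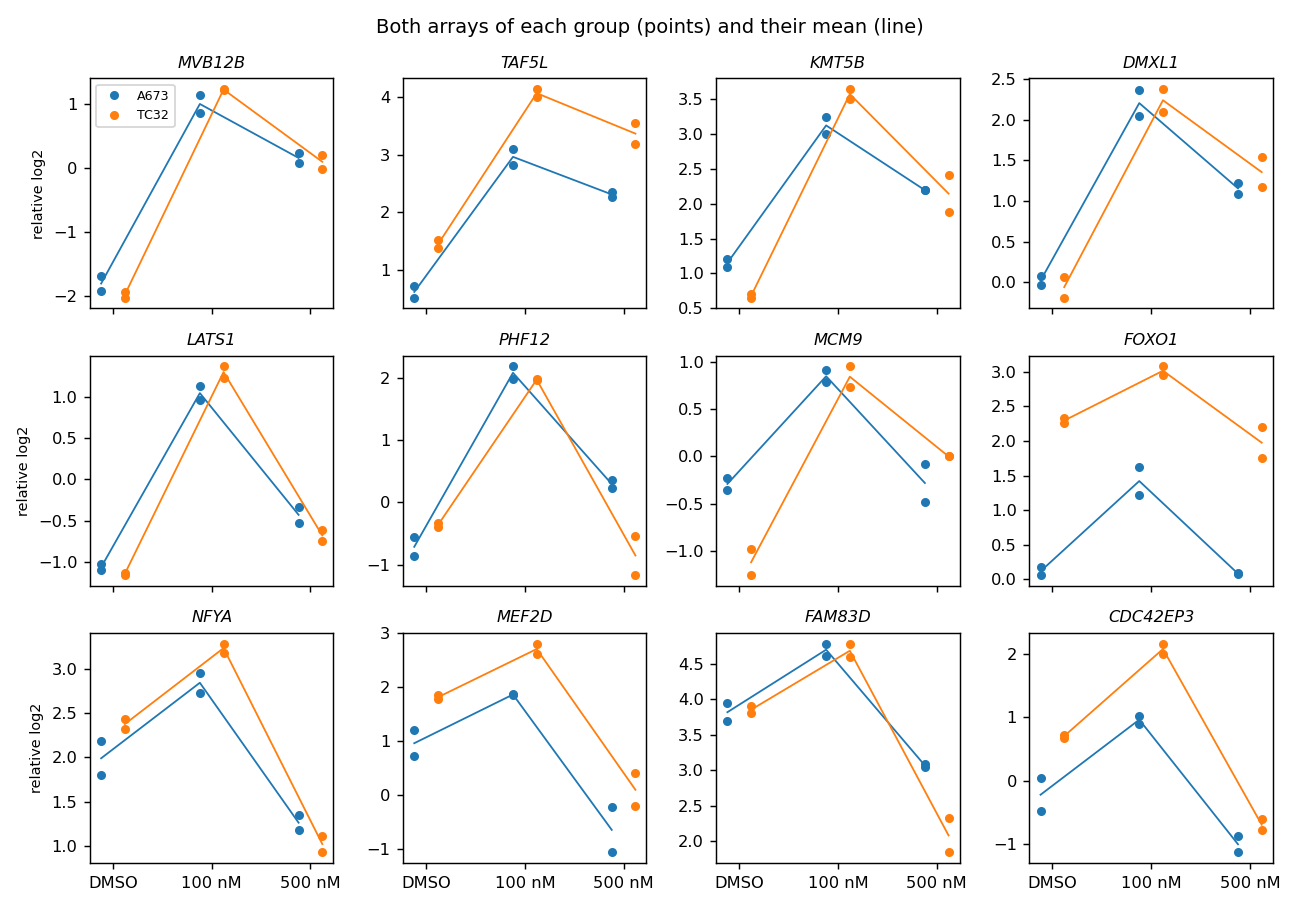
Relative log2 signal (vertical axis, scale differs between panels) of 12 of the genes by dose (horizontal axis), with both arrays of each group as points and their mean as a line, A673 in blue and TC32 in orange. MVB12B, TAF5L, KMT5B and DMXL1 stay above DMSO at 500 nM in both lines, MEF2D, NFYA, FAM83D and CDC42EP3 lie below it, and PHF12 lies above it in A673 and below it in TC32.

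The thresholds set no sign for the 500 nM minus DMSO difference, though its arrays chose the genes, and it varied widely. The relative 500 nM minus DMSO difference ran from -1.61 to 1.95 in A673, with a median of 0.07, and from -1.77 to 2.07 in TC32, with a median of 0.08. Over all tested genes the medians were 0.10 and 0.15. In A673 both 500 nM arrays lay above both DMSO arrays for 58 of the 140, below for 39 and overlapped for 43, beside 42.8%, 33.5% and 23.6% of all tested genes. In TC32 the counts were 60, 42 and 38, beside 51.1%, 37% and 11.9%. In both lines at once 43 genes lay above (37.7% of tested genes), 27 below (28.9%) and 16 overlapped (5.51%), and 5 lay on opposite sides (3.295%). Of these 5, PHF12, CLK3 and SRGAP2 were above DMSO in A673 and below it in TC32, and ATF7IP and PRDM2 the other way round. Without replicate 1 of A673 DMSO, 65 genes lay below in A673, and without replicate 2 of TC32 500 nM, 69 did in TC32. Leaving out an array can only add genes to the counts above or below, so these are no measure of stability. In the deposited values the picture turned: 3 genes in A673, MVB12B, TAF5L and COG3 (1.05% of tested genes), and 12 in TC32 (2.1%) lay above DMSO at 500 nM, while 117 (82.9%) and 118 (89%) lay below. On the deposited scale few members therefore stood above DMSO at 500 nM. The 100 nM difference was smaller there too, with 28 of the 140 reaching 0.7 in A673 and 104 in TC32. With every threshold applied to the deposited values, 27 members remained. On the relative scale, 43 genes above DMSO at both doses in both lines were not raised only at the lower dose.

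The 43 genes above DMSO at both doses in both lines include, beside MVB12B, TAF5L, KMT5B, LATS1, DMXL1 and COG3, the kinase ATM, the cofilin phosphatase SSH1 and the heparan sulfate enzyme NDST1. The 27 genes below DMSO at 500 nM in both lines include MEF2D, PTGER4, FAM83D, CDC42EP3, FEM1C, NFYA, EPC2 and NUFIP1. On the DMSO side 3 genes in A673 (MVB12B, COG3 and DNAJC27) and 12 in TC32 had a dim deposited mean under 5.94, against none at 100 nM. Of those 12, all but DDI2, FANCM and MCM9 are among the 43. They include MVB12B, LATS1, COG3, POFUT3 and ATM, which are among the genes with the largest differences at 100 nM. At 500 nM 14 genes in A673 and 38 in TC32 were under it, so that the return of those genes may be understated.

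The counts by role below are on the relative scale. There 37.7% of all tested genes lay above DMSO at 500 nM in both lines and 28.9% below, and no role was tested. Roles were given to the members alone, so the size of a group has no share of all tested genes beside it. The symbols left aside, such as those starting with ZNF, RNF or FBXO, are in none of the groups. Sequence-specific transcription factors made up 16 of the 140 and lay lowest at 500 nM, with a median 500 nM minus DMSO difference of -0.17 in A673 and -0.28 in TC32. MEF2D, a MADS-box factor of muscle and neurons, had the deepest return averaged over both lines, -2.52 in A673 and -2.61 in TC32 from 100 nM to 500 nM. It stood in A673 at 0.72 and 1.2 (DMSO), 1.88 and 1.85 (100 nM) and -1.07 and -0.23 (500 nM), and in TC32 at 1.78 and 1.85 (DMSO), 2.81 and 2.61 (100 nM) and -0.21 and 0.40 (500 nM). Every 500 nM array lay below every DMSO array of its line, although the 100 nM arrays lay above them. NFYA, the subunit of NF-Y that gives it its hold on CCAAT boxes, stood in A673 at 1.80 and 2.18 (DMSO), 2.73 and 2.95 (100 nM) and 1.18 and 1.35 (500 nM), and in TC32 at 2.43 and 2.32 (DMSO), 3.18 and 3.28 (100 nM) and 0.93 and 1.12 (500 nM). It followed the same order, with 500 nM lowest.

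FOXO1, a forkhead factor held out of the nucleus by AKT, stood in A673 at 0.06 and 0.17 (DMSO), 1.22 and 1.62 (100 nM) and 0.07 and 0.09 (500 nM), and in TC32 at 2.33 and 2.26 (DMSO), 2.95 and 3.08 (100 nM) and 1.75 and 2.20 (500 nM). In A673 the 500 nM and DMSO arrays overlapped, in TC32 the 500 nM arrays were lower, and TC32 was above A673 at every dose. The others were NKRF, a repressor of NF-κB targets, HIC2, ZXDC, RLF, ZFX, ZHX1, BACH1, which represses heme and antioxidant genes, the aryl hydrocarbon receptor AHR, PRDM2, ZMYM5, the ETS factor ELF1, NFATC1 and ATF7. Of all 16, ATF7 alone lay above DMSO at 500 nM in both lines, by 0.34 and 0.22, and MEF2D, NFYA, NKRF and ZXDC lay below in both.

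Of 12 cofactors, general factors and chromatin proteins, 4 lay above DMSO at 500 nM in both lines (TAF5L, KMT5B, DIDO1 and GTF3C2) and 3 below (EPC2, MED26 and CREBBP). Of all tested genes 37.7% lay above and 28.9% below. EPC2, of the NuA4 acetyltransferase complex, stood in A673 at 2.55 and 2.79 (DMSO), 3.44 and 3.40 (100 nM) and 1.22 and 1.46 (500 nM), and in TC32 at 2.21 and 2.08 (DMSO), 3.12 and 3.26 (100 nM) and 1.15 and 1.67 (500 nM). Its 500 nM arrays lay below its DMSO arrays, where those of TAF5L, of another acetyltransferase complex, lay above. MED26, a Mediator subunit, was 1.12 and 0.93 above DMSO at 100 nM and -0.49 and -1.11 from it at 500 nM in A673 and TC32. The acetyltransferase CREBBP was 0.72 and 0.82 above at 100 nM, and -0.68 and -0.39 from DMSO at 500 nM. GTF3C4 and GTF3C2, subunits of the RNA polymerase III factor TFIIIC, were both members, with 100 nM differences of 1.59 and 1.90 for GTF3C4 and 0.73 and 1.23 for GTF3C2. SERTAD2, ATF7IP and MLLT3 of the super elongation complex complete the group with PHF12.

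The 20 genes of RNA processing, export, silencing and ribosome assembly had 100 nM medians of 0.88 in A673 and 1.11 in TC32. NUFIP1, which helps assemble small nucleolar ribonucleoproteins, stood in A673 at 1.92 and 2.04 (DMSO), 2.74 and 2.72 (100 nM) and 1.48 and 1.36 (500 nM), and in TC32 at 1.57 and 1.70 (DMSO), 2.49 and 2.55 (100 nM) and -0.08 and 0.42 (500 nM). Its arrays at 500 nM were the lowest of each line, and lower in TC32. WDR33, a subunit of the polyadenylation factor CPSF that reads the AAUAAA signal, was 1.13 and 1.41 above DMSO at 100 nM and -0.26 and -0.55 from it at 500 nM. SCAF8, which binds the polymerase tail and restrains early polyadenylation, was 1.0 and 1.07 above DMSO at 100 nM and -0.36 and -0.31 from it at 500 nM.

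Of the 20 RNA genes, 8 lay above DMSO at 500 nM in both lines, beside 37.7% of all tested genes. They were the export receptor of the large ribosomal subunit NMD3, RBM18, RBM12, the Argonaute AGO2, the helicase DDX31, GCFC2, the nucleoporin NUP98 and the paraspeckle protein PSPC1. NUP98 was 1.28 and 1.60 above DMSO at 100 nM and 0.36 and 0.44 at 500 nM. The snRNA export adaptor PHAX, the m6A writer subunit RBM15, SRFBP1, FASTKD5, the splicing factors PRPF18 and CDC5L, the kinase CLK3, MEX3C and the silencing scaffold TNRC6B were the rest. NUFIP1, WDR33, SRFBP1, FASTKD5 and RBM15 were the 5 below DMSO in both lines, beside 28.9% of all tested genes.

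Ubiquitin ligase parts and deubiquitinases counted 18. USP45, a deubiquitinase, stood in A673 at 0.02 and 0.48 (DMSO), 2.04 and 2.23 (100 nM) and 1.05 and 1.0 (500 nM), and in TC32 at 0.04 and -0.10 (DMSO), 1.89 and 2.08 (100 nM) and 0.51 and 0.82 (500 nM). It had the largest 100 nM difference of this group and stayed above DMSO. FBXW7, the substrate receptor that brings MYC and cyclin E to a cullin ligase, stood in A673 at 0.01 and 0.41 (DMSO), 0.99 and 1.11 (100 nM) and -0.69 and -0.16 (500 nM), and in TC32 at -0.17 and -0.13 (DMSO), 0.81 and 0.92 (100 nM) and -0.17 and 0.14 (500 nM). At 500 nM it lay below DMSO in A673 and overlapped DMSO in TC32. FEM1C and FEM1B, paralogous receptors of a cullin-2 ligase, differed at 500 nM: FEM1C was -0.86 in A673 and -1.21 in TC32 from DMSO, FEM1B -0.20 and -0.49. KLHL7, KLHL18 and the anaphase-promoting complex activator FZR1 lay above DMSO in both lines with USP45, and SOCS6 below with FEM1C. KLHL20, SIAH1, ASB7, ARMC5, ARMC8, ARRDC4, the linear-chain deubiquitinase OTULIN, USP3, DDI2 and UBL3 completed the group.

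Genome maintenance and cell division gave 7 genes. ATM, the kinase that answers double-strand breaks, stood in A673 at -0.52 and 0.06 (DMSO), 1.71 and 1.78 (100 nM) and 0.77 and 0.93 (500 nM), and in TC32 at -1.09 and -1.04 (DMSO), 0.97 and 1.24 (100 nM) and 0.04 and 0.26 (500 nM). Its 100 nM difference was 1.97 in A673 and 2.17 in TC32, and it stayed above DMSO at 500 nM in both. FANCM, a translocase of the Fanconi anaemia pathway, was 1.34 and 1.84 above DMSO at 100 nM and was the only member under the signal filter of the tests. MCM9, a helicase of homologous recombination, stood in A673 at -0.35 and -0.23 (DMSO), 0.78 and 0.91 (100 nM) and -0.48 and -0.08 (500 nM), and in TC32 at -0.98 and -1.25 (DMSO), 0.73 and 0.95 (100 nM) and 0.0 and 0.0 (500 nM). In A673 the 500 nM and DMSO arrays overlapped, and in TC32 the 500 nM arrays were higher. FAM83D, a spindle protein, stood in A673 at 3.69 and 3.94 (DMSO), 4.61 and 4.78 (100 nM) and 3.09 and 3.04 (500 nM), and in TC32 at 3.90 and 3.80 (DMSO), 4.59 and 4.77 (100 nM) and 1.84 and 2.32 (500 nM). Its return took it below DMSO in both lines, and lower in TC32 than in A673. HAUS3, of the augmin complex that seeds spindle microtubules, was also below DMSO in both, while RAD54B and CEP78 overlapped it in both.

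Signalling genes counted 22. SSH1 was 1.67 and 2.13 above DMSO at 100 nM and 0.77 and 1.36 at 500 nM. The phosphatase PTPN14 (0.79 and 0.95), the ephrin receptor EPHA7 (0.81 and 0.86) and the mTORC1 regulator folliculin, FLCN (0.36 and 0.38), were above DMSO at 500 nM in both lines with SSH1 and LATS1. PTGER4, a prostaglandin E2 receptor, stood in A673 at 0.41 and 0.61 (DMSO), 1.46 and 1.45 (100 nM) and -0.48 and -0.54 (500 nM), and in TC32 at -0.01 and 0.06 (DMSO), 1.0 and 1.22 (100 nM) and -1.59 and -1.53 (500 nM). CDC42EP3, an effector of the GTPase CDC42, stood in A673 at -0.49 and 0.04 (DMSO), 1.03 and 0.90 (100 nM) and -1.14 and -0.88 (500 nM), and in TC32 at 0.73 and 0.68 (DMSO), 2.0 and 2.17 (100 nM) and -0.79 and -0.61 (500 nM). Both had every 500 nM array below every DMSO array, with returns from 100 nM of -1.96 and -2.67 for PTGER4 and -1.98 and -2.78 for CDC42EP3. SESN2, a p53 target that restrains mTORC1, the kinases MAP3K1 and STK17A and the lipid phosphatase MTMR3 were below in both lines as well. NET1, RGMB, CYTH3, SRGAP2, the EGFR inhibitor ERRFI1, the R-spondin receptor LGR4, MAPKBP1, AKAP1, BMP2K, the KIT ligand KITLG and the phosphatase PTPN2 were the others.

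Membrane traffic and the cytoskeleton gave 16 genes, 7 of them above DMSO at 500 nM in both lines, beside 37.7% of all tested genes. These 7 were MVB12B, DMXL1, COG3, DNAJC27, the kinesin KIF1B, PDZD8 and MREG. ANKRD50, a partner of the SNX27-retromer recycling route, went the other way and stood in A673 at 1.16 and 1.45 (DMSO), 2.05 and 2.32 (100 nM) and 0.27 and 0.37 (500 nM), and in TC32 at 0.48 and 0.36 (DMSO), 2.14 and 2.16 (100 nM) and -0.11 and 0.09 (500 nM). Its arrays at 500 nM were below DMSO in both lines, as were those of CNST and LUZP1. RAB30, RAB33B, PLEKHF2, RUFY3, the clathrin adaptor subunit AP1G1 and CCDC186 differed in class between the lines or overlapped DMSO.

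Transporters and metabolic or modifying enzymes, 15 genes, stayed highest at 500 nM, with medians of 0.49 in A673 and 0.40 in TC32. Of these 15, 9 lay above DMSO in both lines and none below in both, beside 37.7% and 28.9% of all tested genes. POFUT3, an O-fucosyltransferase, was 1.84 and 2.52 above DMSO at 100 nM and 0.92 and 0.86 at 500 nM. NDST1 stood in A673 at 1.19 and 1.13 (DMSO), 2.69 and 2.85 (100 nM) and 2.24 and 1.98 (500 nM), and in TC32 at 0.45 and 0.55 (DMSO), 2.78 and 2.89 (100 nM) and 1.70 and 1.99 (500 nM). The efflux pump ABCC5 was 1.87 and 1.88 above at 100 nM, the peroxisomal carnitine acyltransferase CROT 1.63 and 1.83, and the taurine transporter SLC6A6 1.47 and 1.71. B3GNT2, the O-GlcNAc hydrolase OGA, NAA16 and SLC25A52 were the others above DMSO in both lines. SLC25A52 and SLC25A51, the mitochondrial NAD carrier, are near-identical copies whose probe sets may read both, and they are counted here as uncertain. PANK3, which starts coenzyme A synthesis, the sphingolipid enzyme SPTLC2, the prenyltransferase subunit PGGT1B, the iron transporter SLC11A2 and the anion channel subunit LRRC8C were the rest. The last 14 genes have other or little-known roles: GDAP2, LRCH1, TMEM201 and MB21D2 lay above DMSO at 500 nM in both lines, ABHD13 and DEDD2 below, and OSER1, GFOD2, FAM117B, COBLL1, SMIM13, MACIR, TMEM68 and TSPAN14 were mixed.

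**Figure D4:**
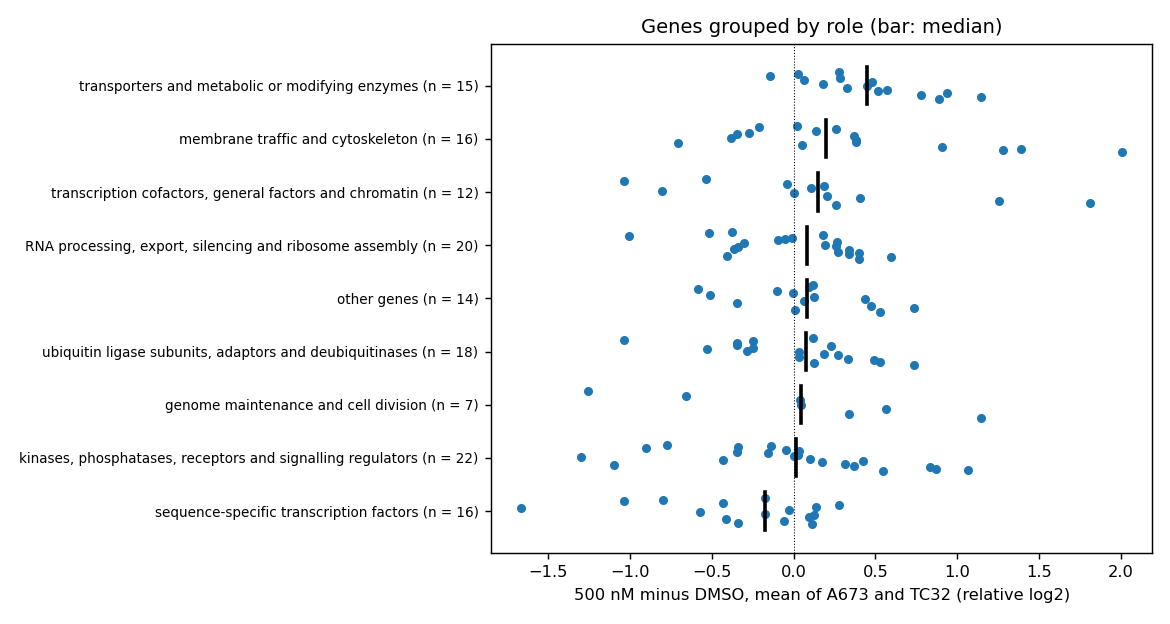
Relative 500 nM minus DMSO difference, averaged over A673 and TC32 (horizontal axis, log2), of each of the 140 genes, grouped by role (rows), with a bar at each group's median. Transporters and enzymes lie farthest to the right and transcription factors farthest to the left, with wide overlap.

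The level of the genes in A673 against TC32 under DMSO was tested with limma, adjusted over all 10166 tested genes. No threshold compared the lines, but the DMSO arrays of each line entered the thresholds within it. The counts, calls and adjusted p-values of members below are therefore a description and not independent tests. Of the 139 members tested, 61 (43.9%) were higher in A673, beside 33.9% of all tested genes, 27 (19.4%) were lower, beside 21.5%, and 51 were not called. Of the members tested, 11 had a deposited DMSO mean under 5.94 in a line and passed the signal filter through their other groups. ATM, DDI2 and MCM9 are the 3 called among them, all higher in A673, with dim TC32 means of 5.44, 5.31 and 5.39. Among genes at or above 5.94 with DMSO in both lines, a count added after seeing the data, 58 of 128 members were higher in A673, beside 33.7% of such genes, and 27 lower, beside 22%. The median difference over all members tested was 0.25, against 0.12 over all tested genes, on the relative scale. FOXO1 differed most: it averaged 0.11 in A673 and 2.29 in TC32, a difference of -2.18 (SE 0.14, adjusted p = 1.1e-11 by limma). SERTAD2 averaged 1.92 in A673 and 0.05 in TC32 (difference 1.87, SE 0.13, limma adjusted p = 4.51e-11), and HIC2 averaged 1.15 and -0.54 (1.69, SE 0.15, limma adjusted p = 3.08e-09). PLEKHF2, NFATC1, ABCC5, COBLL1, CDC42EP3 and MLLT3 were also lower in A673, by differences of -1.58 to -0.91, and MB21D2, BACH1, GTF3C4, FLCN, KLHL7, SLC6A6, GDAP2, OSER1, PTPN2, MEX3C and DDX31 were higher, by 0.90 to 1.35. All of these were called without any 1 array. In the deposited values, whose medians differ by 0.69 between the lines, 105 members were higher in A673, beside 77.4% of tested genes, and 3 lower (FOXO1, PLEKHF2 and NFATC1), beside 5.12%, and ABCC5 (limma adjusted p = 0.0573), COBLL1 (0.104), CDC42EP3 (0.288) and MLLT3 (0.327) were not called.

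The 500 nM minus DMSO difference of TC32 minus that of A673 is given as a description with no test, since the arrays behind it chose the genes. Over the 140 genes its quartiles were -0.22 and 0.24, against -0.18 and 0.24 over all tested genes. The 5 members with the widest differences are PHF12, MCM9, FAM83D, NUFIP1 and FBXW7. PHF12 was -0.49 from DMSO in TC32 and 1.01 in A673, a difference of -1.50, with a dim deposited mean of 4.86 in TC32 at 500 nM. FAM83D was -1.77 in TC32 and -0.75 in A673 (difference -1.03), and NUFIP1 -1.46 and -0.55 (difference -0.90), with a deposited TC32 mean of 5.88 at 500 nM. MCM9 went the other way, with 1.11 in TC32 and 0.01 in A673 (difference 1.10), but both of its deposited means in TC32, 5.71 at 500 nM and 5.39 with DMSO, were under 5.94. FBXW7 was 0.14 in TC32 and -0.64 in A673 (difference 0.77), with a deposited TC32 mean of 5.70 at 500 nM. In the deposited values the differences of these 5 genes were -1.46, 1.14, -0.99, -0.86 and 0.81 in the order named first.

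**Figure D5:**
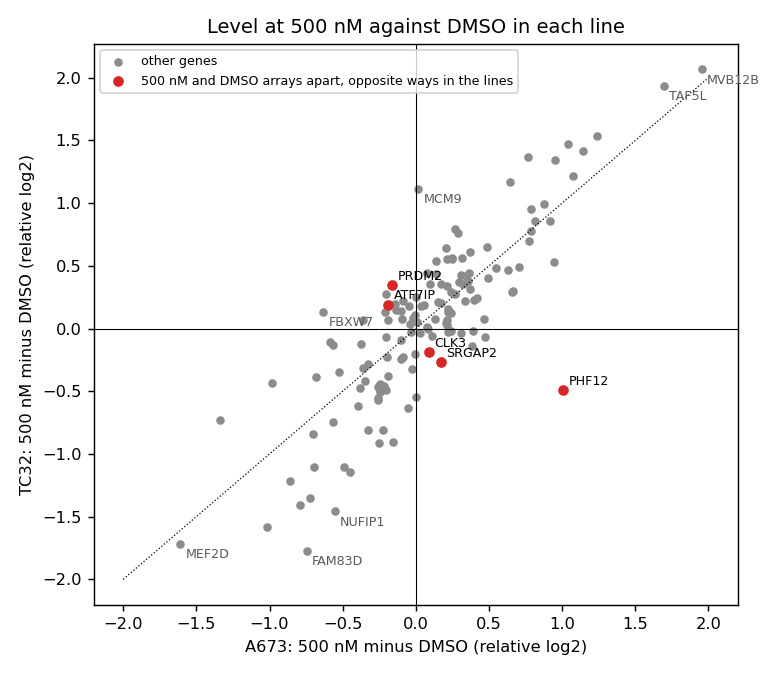
Relative 500 nM minus DMSO difference (log2) in A673 (horizontal axis) and TC32 (vertical axis) for each of the 140 genes, with the line of equality dotted and, in red, the 5 genes whose 500 nM arrays lay apart from their DMSO arrays in opposite directions in the lines. PHF12 lies at 1.01 in A673 and -0.49 in TC32, and MCM9 at 0.01 and 1.11, away from the other points.

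The members spanned longer stretches of the genome than most. In RefSeq's GRCh38.p14 models the 140 genes had a median span of 61.6 kb (quartiles 30.98 and 105.3), against 28.4 kb (11.2 and 68.3) over 10164 tested genes. Spans over 10 kb made up 97.9% of members and 77.4% of tested genes, and spans over 100 kb 28.6% and 16.8%, while spans over 200 kb made up 3.57% and 5.92%. The 5 longest were TNRC6B (291 kb), MLLT3 (280.8 kb), SRGAP2 (260.9 kb), FBXW7 (215.5 kb) and PTPN14 (202.9 kb), and the 3 under 10 kb were SLC25A52, RBM15 and ARMC5. The 129 genes with a listed span that stood as far above DMSO at 100 nM without the return had a median of 34.8 kb. Within the members, log span correlated weakly with the 500 nM minus DMSO difference, at 0.31 in TC32 and 0.16 in A673 over 140 genes that share arrays. These are descriptions with no test.

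Chromosome 13 held 10 members (7.14%, against 1.74% of tested genes): COG3, FOXO1, ELF1, NAA16, NUFIP1, LRCH1, PSPC1, ZMYM5, UBL3 and ABHD13. Chromosome 5 held 12 (8.57%, against 4.32%) and chromosome 18 held 5 (3.57%, against 1.38%). Chromosome 19 held 3 (2.14%, against 7.28%) and chromosome 17 held 3 (2.14%, against 6.28%). The zinc finger genes set aside by symbol are frequent on chromosome 19 and are still counted among the tested genes. Their part in its low share was not tested. In the 250 bases before the start, for 126 of the 140 genes with 200 listed starts, a CCAAT box was found in 37.5% of windows, against 33.3% of those of tested genes, a GC box (GGGCGG) in 68.5% against 63.9%, and an ETS core (CCGGAA) in 17% against 22.9%. A cyclic AMP response element (TGACGTCA) was found in 3% against 2.54%, an E-box (CACGTG) in 9.5% against 8.62%, an NRF1 core (GCATGCGC) in 5.5% against 4.19% and a TATA box (TATAAA) in 7% against 6.1%, all on either strand, and the median GC content was 64.8% in both. None of the 7 motifs set the members' windows far apart from those of other tested genes.

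The genes of related pathways that were no members were tested at 100 nM against DMSO with limma, where 24.5% of all tested genes were called higher and 17.1% lower in A673, and 30.6% and 21.2% in TC32. CDK12, a target of the compound, was 0.16 from DMSO in A673 (not called) and 0.54 in TC32 at 100 nM, and fell by 0.81 and 1.00 from 100 nM to 500 nM. CDK13 was -0.80 in A673 and -0.08 in TC32 (not called) at 100 nM, and CCNK, which encodes cyclin K, was 0.41 and 0.33, all on the relative scale; in the deposited values none of the 3 was called higher at 100 nM in either line. All 3 were called lower at 500 nM than at 100 nM in both lines, on the relative and the deposited scale, as the members were by choice.

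Most of the chromatin modifiers tested fell between the doses. Of 42, 13 were higher and 11 lower at 100 nM in A673, and 18 higher and 10 lower in TC32. From 100 nM to 500 nM 29 fell and 1 rose in A673, beside 25.2% and 10.5% of tested genes, and 28 fell and 4 rose in TC32, beside 29.8% and 29.2%. Of 32 ubiquitin genes that were no members, 11 were higher and 8 lower at 100 nM in A673 and 18 and 7 in TC32, and 22 fell from 100 nM to 500 nM in each line. Of 23 genes of membrane traffic and autophagy, 7 were higher and 2 lower in A673 and 10 and 4 in TC32, and 13 and 14 fell between the doses. Of 13 P-TEFb, 7SK and BET genes, 4 were higher and 4 lower in A673, and 7 and 5 in TC32; HEXIM1, the inhibitor of P-TEFb, was 1.00 and 1.72 higher at 100 nM (limma adjusted p = 7.96e-07 and 1.5e-10). In the deposited values more genes of each of these 4 lists were lower than higher at 100 nM in A673, and falls between the doses were at least as frequent.

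Immediate-early and short-lived transcripts took another course. Of 29 tested, 24 rose in A673 and 26 in TC32 at 100 nM with none lower, by a median of 0.71 and 0.66 on the relative scale, against 6 higher and 4 lower in A673 and 13 higher and none lower in TC32 in the deposited values. From 100 nM to 500 nM 21 of them rose further in A673 and 14 in TC32 and 2 and 8 fell, on the relative scale; in the deposited values 12 rose and 2 fell in A673, and 6 rose and 15 fell in TC32. IER3 was 1.66 and 1.56 higher at 100 nM in A673 and TC32 and 1.01 and 2.05 higher again at 500 nM (limma adjusted p at most 2.23e-08). Genes of the DNA damage response fell: 15 of 22 in A673 and 14 in TC32 were lower at 100 nM, with none and 1 higher, and 21 and 14 lower in the deposited values. BRCA1 was -1.19 and -1.63 from DMSO at 100 nM (limma adjusted p = 1.52e-07 and 6.26e-10), where the members ATM and FANCM stood above DMSO. From 100 nM to 500 nM BRCA1 rose by 0.57 in A673 and 1.30 in TC32 on the relative scale. Of the 22 genes 4 rose and 4 fell between the doses in A673, and 8 and 5 in TC32. In the deposited values 0 rose and 4 fell in A673, and 1 and 10 in TC32.

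The counts of the other lists at 100 nM are relative, and in the deposited values more genes were lower than higher in A673 for each of them. Of 19 p53 targets, 5 were higher and 5 lower in A673, and 10 and 3 in TC32. Of 26 splicing regulators, 11 were higher and 2 lower, and 12 and 5. Of 13 cyclic AMP, circadian and feedback regulators, 6 were higher and 1 lower, and 9 and 1; NFIL3, a bZIP repressor, was 1.35 and 1.19 higher at 100 nM and fell by 0.95 and 0.77 at 500 nM (limma adjusted p at most 0.000319). It missed the set through its deposited 100 nM mean in TC32, 6.29. Of 15 genes of the integrated stress and unfolded protein responses, 5 were higher and 3 lower, and 3 and 3, of 11 sterol genes 8 and 0, and 6 and 1, and of 10 interferon and innate sensing genes 5 and 1, and 4 and 1. Over all 258 list genes tested, the count higher at 100 nM in A673 was 100, and it was 61 without replicate 1 of A673 DMSO and 65 without replicate 2 of A673 100 nM.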

How the data were processed

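Total RNA of A673 and TC32 cells was biotin-labelled and hybridised to single-colour arrays of Affymetrix-style probe sets, per the labels' protocols. The submitters' processing notes name MAS5, GRCh37 and hg19 without a role, and a normalization method is not given in the sources used here. Log2 values make up the deposited table of 49395 probe sets: 44994 name 1 gene, 1832 several and 2569 none. Entries with 3 decimals (46566) were used. Of 17029 genes, 85 that share identical values with another symbol were left out, and 16944 were kept, each with 1 value an array. For 10 genes with more than 1 set of values, none of them a member, the set with the highest mean was taken. Each array was centred on its median over the kept genes. The table holds no scanner intensities, so background and saturation are unknown, and the number of arrays limits the precision.

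With limma 3.58.1, a linear model with 6 group means was fitted over all 12 arrays (R 4.3.3, eBayes with a trend, two-sided, Benjamini-Hochberg, threshold 0.05) over 10166 genes whose mean reached 5.94, the 40th percentile. On simulated data for A673 against TC32 under DMSO with 10166 genes, it recovered 85 of 100 changes of 0.5 and 100 of 100 of 1 (log2), with 9 false calls. Gene spans and promoter windows came from RefSeq. Tables and figures were made with Python 3.11.15, pandas 2.3.3 and matplotlib 3.10.9.

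The members, the 13 gene lists and the markers were chosen with earlier results of these data known. The genes to name were the 40 with the largest difference at 100 nM (not all with values), the 3 nearest the thresholds on either side, the members with a called difference between the lines (up to 20), CDK12, CDK13 and CCNK, and up to 3 a list by size. Other members are named by role, and ATF7, CREBBP, EPC2, FAM83D, FBXW7, FEM1B, FEM1C, GTF3C2, MED26, MEF2D, NFYA, NUFIP1, PTGER4, SCAF8, SRGAP2, CLK3, ATF7IP and PRDM2 were given values after these were seen. A planned limma test of the 500 nM minus DMSO difference between the lines is not reported, because the arrays behind it chose the genes. Differences at exactly a threshold were counted as meeting it.

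Replicates carry the numbers 1 and 2 in every group. The deviations of same-numbered arrays from their group means correlated at -0.15 to 0.44 between groups, so the numbers were not taken as pairs. Alternatives were the deposited scale, quantile normalization, no filter, a replicate block, other thresholds and leaving out each array.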

Additional observations from a re-analysis of the deposited data

Results flagged for a closer look

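For 5 members every 500 nM array lay on one side of the DMSO arrays in TC32 and on the other side in A673, on the relative scale. The difference between the lines was not tested, because these arrays took part in the choice of the genes. The 500 nM minus DMSO difference of TC32 minus that of A673 was -1.50 for PHF12, -0.44 for SRGAP2, -0.28 for CLK3, 0.38 for ATF7IP and 0.51 for PRDM2. PHF12 was -0.49 from DMSO in TC32 and 1.01 in A673, while PRDM2 was 0.35 in TC32 and -0.16 in A673. In the deposited values the 500 nM means of SRGAP2, CLK3, ATF7IP and PRDM2 were below the DMSO means in both lines. PHF12 was below in TC32 (4.86 against 6.14) and above in A673 (6.65 against 6.48). Such opposite positions made up 3.295% of all tested genes.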

How the results depend on the processing

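After quantile normalization 104 genes met the thresholds, 103 of them members, against 140. In the deposited values 36 genes met the thresholds, 27 of them members, and 35 did with thresholds of 1 and -0.75, against 140. Members called higher in A673 than in TC32 under DMSO were 105, and lower 3, against 61 and 27. At 500 nM, 3 members in A673 and 12 in TC32 lay above DMSO and 117 and 118 below in the deposited values, against 58, 60, 39 and 42. List genes higher at 100 nM were 12 in A673 and 40 in TC32, and lower 133 in A673, in the deposited values, against 100, 126 and 53. Those higher at 500 nM than at 100 nM were 15 in A673 and 10 in TC32 in the deposited values and 64 in A673 after quantile normalization, against 39 and 49. With the replicate number as a block, 63 members were higher and 31 lower in A673 under DMSO, against 61 and 27, and the numbers are not shown to pair the arrays.

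Leaving out 1 array at a time gave 115 to 155 genes meeting the thresholds. Called higher in A673 under DMSO were 43 to 67 members and lower 20 to 32. At 500 nM 58 to 83 lay above and 39 to 65 below DMSO in A673, and 60 to 88 and 42 to 69 in TC32. These 500 nM counts can only rise when an array is left out. List genes at 100 nM were 61 to 109 higher and 36 to 54 lower in A673 and 89 to 133 and 38 to 57 in TC32, and at 500 nM against 100 nM 26 to 45 and 94 to 119, and 40 to 53 and 108 to 131. A lone array left in a group is assumed to vary like the others.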
